A study of Mus musculus with 24 samples.

Results

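The genes described are 8 Wnt ligands (Wnt2, Wnt3a, Wnt4, Wnt5a, Wnt7a, Wnt7b, Wnt10b and Wnt11) and the pathway's feedback gene Axin2, chosen by name. They are 9 of the 45777 genes in the deposited table, and all 9 passed the low-count filter that left 19690 genes for testing. RNA was taken from lungs of wild-type male C57BL/6J mice, either young (8 to 12 weeks) or old (22 to 24 months), and sequenced in 24 libraries. In the reperfused groups the artery, vein and bronchus of the left lung were clamped together for 60 min, and the lungs were taken 1 h or 1 day after release. Each age also had a sham group, for which the time of sampling is not stated. Sham, 1 h and 1 day lungs of both ages thus made 6 groups, with 4 libraries in each. All values come from whole tissue, and which cells of the lung made each RNA was not measured.

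Wnt ligands are secreted, lipid-modified glycoproteins that bind Frizzled receptors on nearby cells. Together with the co-receptors Lrp5 and Lrp6, canonical ligands stop the destruction complex from degrading beta-catenin, which then switches on genes through TCF/LEF factors, whereas other ligands mainly signal without beta-catenin. Axin2 is both a scaffold of that destruction complex and a direct target of the signal, so it is widely used as a readout of canonical Wnt activity, and in the adult lung Axin2-positive alveolar type 2 cells and fibroblasts form part of the repair compartment.

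Library totals ran from 27850677 to 44504824 estimated reads. Markers of alveolar type 1, alveolar type 2 and endothelial cells were present in every group, with none of the 10 genes of each list at 0. Neutrophil markers differed most within groups: their summed level (TPM, length-adjusted transcript abundance scaled to 1000000 per library) was 22820 in old 1 h replicate 1 against 5032 to 10180 in the other old 1 h libraries, and 19870 in old 1 day replicate 2 against 1852 to 8108. All 8 neutrophil markers rose in old 1 h, 7 in old 1 day and 3 in young 1 h lungs against sham. Young reperfused libraries stood apart from the rest in their share of mitochondrial reads, 0.758% to 1.49% against 2.47% to 4.26% in the other groups, and in a trend on GC content. Spearman's rho between a gene's GC content and its deviation from the mean of all libraries ranged from 0.29 to 0.42 for young 1 h libraries and from 0.20 to 0.44 for young 1 day libraries, over 18163 genes, and from -0.34 to -0.02 for the other 4 groups. The 9 genes lay between the 56.6 and 97.6 percentiles of GC content, and changes whose call was gained or lost when this trend was removed are given with both values. Their part in the differences between young reperfused and other libraries was not tested beyond that.

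Per unit length the 9 genes were expressed at similar, low levels. The mean TPM over all libraries was 12.0 for Wnt10b, 11.1 for Wnt7a, 10.8 for Axin2 and for Wnt11, 10.4 for Wnt4, 9.58 for Wnt3a and 8.99 for Wnt2. Wnt5a (4.52 TPM) and Wnt7b (3.13 TPM) were lower. Expression of the genes is given below in CPM, counts scaled to a library total of 1000000 after TMM adjustment, with the standard deviation (SD) over 4 libraries. A change is called where the adjusted p of edgeR's quasi-likelihood test is under 0.05 after Benjamini-Hochberg adjustment over all 19690 genes, and its log2 value is given with a standard error (SE). All 6 groups were fitted together. Where a call depended on it, the value is also given from a fit of only the groups compared, from DESeq2, from limma on log2(TPM + 1), without the low-count filter, from the most abundant transcript of each gene alone, after removal of the GC trend, with the replicate number as a block (the numbers were not found to pair the libraries), or without 1 library. Exons of Wnt5a, Wnt7b, Wnt11 and Axin2 overlap a gene on the opposite strand (Gm2670, AU022754, Gm8398 and Gm11670 in GENCODE). The library kit keeps strand, but whether the counting used it is not given in the sources used here, so those 4 levels may hold reads of the partner.

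**Figure D1:**
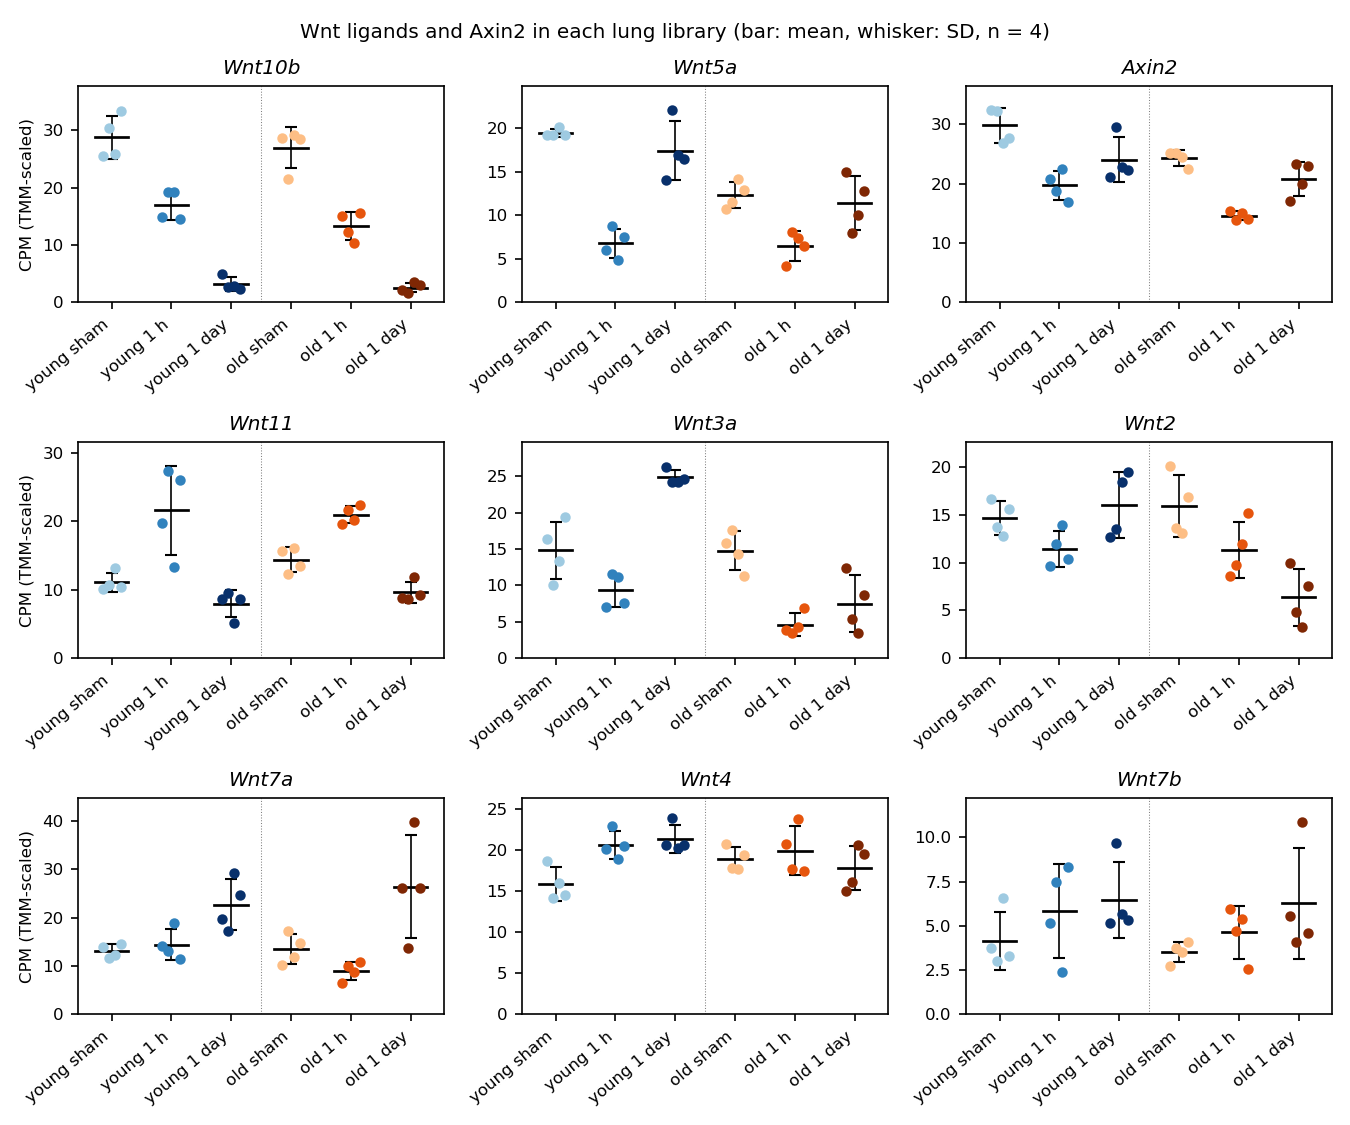
Level of each gene in each of the 24 libraries, in TMM-scaled counts (CPM) on a linear axis from 0; points are libraries, bars group means and whiskers SD (n = 4). Wnt10b steps down from sham (21.6 to 33.4 CPM) to 1 h (10.3 to 19.3 CPM) to 1 day (1.62 to 5.01 CPM) at both ages, and the 1 day libraries of Wnt3a and Wnt2 lie apart between young and old.

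Wnt10b, a canonical ligand (Entrez 22410, chromosome 15, 98770712 to 98778206, mm10), showed the largest change of the 9 genes. It fell 9.04-fold in young and 10.5-fold in old lungs 1 day after reperfusion. In young sham lungs it stood at 25.6, 30.5, 26.0 and 33.4 CPM. In young 1 h lungs it stood at 14.9, 19.2, 19.3 and 14.6 CPM, and in young 1 day lungs at 5.01, 2.72, 2.82 and 2.24 CPM. In old lungs it stood at 28.7, 21.6, 29.2 and 28.6 CPM after sham. At 1 h it stood at 14.98, 12.2, 10.3 and 15.6 CPM, and at 1 day at 2.15, 1.62, 3.56 and 2.93 CPM. The 3 stages did not overlap at either age, while young and old overlapped at each stage. Against sham, the log2 change was -0.76 ± 0.21 (SE, adjusted p = 0.00658) in young 1 h and -1.02 ± 0.22 (adjusted p = 0.00138) in old 1 h. At 1 day it was -3.18 ± 0.24 (adjusted p = 6.96e-10) in young and -3.39 ± 0.24 (adjusted p = 3.63e-09) in old lungs. Between 1 h and 1 day Wnt10b fell again, by 2.41 ± 0.23 on the log2 scale in young (adjusted p = 1.1e-07) and by 2.37 ± 0.23 in old lungs (adjusted p = 1.82e-07). The change did not differ detectably between ages, with differences of -0.26 ± 0.30 at 1 h (adjusted p = 0.625) and -0.22 ± 0.32 at 1 day (adjusted p = 0.644). With only the most abundant of its 4 transcripts counted, both 1 h calls were lost (adjusted p = 0.615 and 0.349) and both 1 day calls remained (log2 changes of -3.997 and -5.08).

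The promoter stretch of Wnt10b is shown because no other member moved as far. It is RefSeq sequence of build GRCm38.p6 on the minus strand, chr15:98778207-98778400, and ends 1 base before the outermost transcript start in the deposited table. No stretch of it is in capitals, since it held none of the 4 motifs searched below.
Wnt10b: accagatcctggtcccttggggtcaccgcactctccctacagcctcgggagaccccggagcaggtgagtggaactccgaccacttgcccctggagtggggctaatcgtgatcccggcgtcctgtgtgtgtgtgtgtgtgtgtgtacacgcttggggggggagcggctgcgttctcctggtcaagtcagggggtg

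Some marker lists of other cells changed at 1 h or at 1 day. Of 10 T cell markers, 9 fell in young and 10 in old lungs at 1 day, and their summed level was 148 to 178 TPM in young sham, 66.0 to 83.0 TPM in young 1 day, 148 to 187 TPM in old sham and 70.3 to 102 TPM in old 1 day lungs. At 1 h the sum was 112 to 181 TPM in young lungs, with 2 markers higher and 1 lower, and 169 to 234 TPM in old lungs, with 4 higher. Of 8 airway epithelial markers 6 fell at 1 day at each age, and their sum was 70030 to 88110 TPM in young sham and 69380 to 107900 TPM in old sham against 35000 to 53040 TPM and 38530 to 59340 TPM at 1 day. Most of that sum was 1 gene, Scgb1a1, named after its values were seen. It averaged 72816 TPM in young sham, 41842 TPM in young 1 day, 79318 TPM in old sham and 47780 TPM in old 1 day lungs. Of 8 mesothelial markers 5 fell in young 1 h and in young 1 day, 4 in old 1 h and 3 in old 1 day lungs, and 1 rose in each. Their median log2 changes were -1.54, -1.55, -1.58 and -0.51 in the same order. Their summed level was 370 to 508 TPM in young sham, 578 to 904 TPM in young 1 h, 767 to 1072 TPM in young 1 day, 374 to 597 TPM in old sham, 474 to 566 TPM in old 1 h and 525 to 923 TPM in old 1 day lungs, so it did not fall with the median. The gene that rose was Krt19, also a keratin of other epithelia, which made up most of the sum (260 TPM in young sham and 675 TPM in young 1 h lungs). No marker of these 3 lists was at 0, and their part in the fall of Wnt10b, or in the 1 h falls of Wnt5a and Axin2 given below, was not tested. In whole tissue, fewer cells of a type and less RNA per cell cannot be told apart. The gene whose pattern over the 6 group means was closest to Wnt10b among 14349 candidates was Fras1, which encodes an extracellular matrix protein, with a root mean square difference of 0.26 on the log2 scale against a spread (SD) of Wnt10b itself of 1.40. Omd followed at 0.38.

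Wnt3a, a canonical ligand (Entrez 22416, chromosome 11, 59248036 to 59290751), moved in opposite directions at 1 day in young and old lungs. Young 1 day lungs held 26.3, 24.1, 24.2 and 24.6 CPM, above all 4 young sham libraries (16.4, 10.1, 13.4 and 19.3 CPM). Old 1 day lungs held 12.4, 5.46, 3.502 and 8.62 CPM, against 15.8, 17.6, 14.4 and 11.3 CPM in old sham. These old groups overlapped by 1 library on each side. The log2 change at 1 day was 0.75 ± 0.29 (SE, adjusted p = 0.0322) in young and -0.98 ± 0.29 (adjusted p = 0.012) in old lungs. The difference between these changes was itself called, at -1.72 ± 0.41 (old minus young, adjusted p = 0.00323), and it was called under every alternative and with every library left out in turn (adjusted p = 0.000219 to 0.0154). The young rise alone was less stable. It was not called with the GC trend removed (0.35, adjusted p = 0.312), by limma on TPM (0.52, adjusted p = 0.0831), without the low-count filter (0.73, adjusted p = 0.0542), from the most abundant transcripts (0.71, adjusted p = 0.0799), without young sham replicate 2 (0.60, adjusted p = 0.114) or 3 (0.69, adjusted p = 0.0806), or without young 1 day replicate 1, 3 or 4 (0.71 to 0.74, adjusted p = 0.0545 to 0.0698). The old fall was not called with only the groups compared (-0.99, adjusted p = 0.0563).

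At 1 h Wnt3a was at 3.84, 3.42, 4.26 and 6.91 CPM in old lungs, below every old sham library, a log2 change of -1.68 ± 0.30 (adjusted p = 0.00032). In young 1 h lungs it was at 7.04, 11.5, 11.1 and 7.59 CPM, which overlapped young sham, and the change of -0.67 ± 0.29 was not called (adjusted p = 0.0709). It was called there with the GC trend removed (-0.95, adjusted p = 0.0124), by DESeq2 (-0.68, adjusted p = 0.044), by limma (-0.84, adjusted p = 0.00876), with only the groups compared (-0.68, adjusted p = 0.0317) and without young sham replicate 2 (-0.83, adjusted p = 0.0378), old 1 day replicate 1 (-0.69, adjusted p = 0.0344) or old 1 day replicate 3 (-0.69, adjusted p = 0.0328). The difference between ages at 1 h, -1.01 ± 0.41, was not called (adjusted p = 0.0955), except without old 1 h replicate 4 (-1.27, adjusted p = 0.0407) and with only the groups compared (-1.0, adjusted p = 0.0497). Compared directly, old 1 h lungs were lower than young 1 h lungs, at -1.01 ± 0.30 (adjusted p = 0.00912), a call lost with the GC trend removed (-0.72, adjusted p = 0.0627). Old 1 day lungs were lower than young 1 day lungs, at -1.73 ± 0.29 (adjusted p = 6.11e-05), and the 4 libraries of each lay apart. Among genes most like Wnt3a over the 6 groups, the Wnt receptor gene Fzd2 was the nearest but one, with a root mean square difference of 0.24 against a spread of 0.81. Fzd2 was at 41.7 ± 3.82 CPM (SD, n = 4) in young 1 day and 13.7 ± 4.22 CPM in old 1 day lungs.

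Wnt2, a canonical ligand of the lung mesenchyme that helps to specify the lung in the embryo (Entrez 22413, chromosome 6, 17985474 to 18032772), was called against sham in 1 of 4 comparisons, the one of old lungs at 1 day. Old 1 day libraries held 9.94, 4.79, 3.25 and 7.58 CPM, all below old sham (20.1, 13.6, 13.1 and 16.8 CPM), a log2 change of -1.31 ± 0.26 (SE, adjusted p = 0.000433). Young 1 day libraries, at 12.7, 13.5, 18.4 and 19.5 CPM, overlapped young sham at 16.7, 13.7, 12.8 and 15.6 CPM (0.12 ± 0.25, adjusted p = 0.702). The difference between the changes, old minus young, was -1.44 ± 0.36 (adjusted p = 0.00452), which was called under every alternative and with every library left out in turn (adjusted p = 0.00048 to 0.0156). At 1 h the changes of -0.36 ± 0.25 in young and -0.48 ± 0.25 in old lungs were not called (adjusted p = 0.274 and 0.167). Old 1 day lungs were also lower than old 1 h lungs (-0.83 ± 0.26, adjusted p = 0.0119), a call lost without old 1 h replicate 4 (-0.67, adjusted p = 0.0504) and with only the groups compared (-0.87, adjusted p = 0.0694).

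The summed level of 10 fibroblast markers was lower in the same old 1 day libraries, at 1548 to 2677 TPM against 3447 to 4099 TPM in old sham, 4212 to 5259 TPM in young 1 day and 4436 to 5073 TPM in young sham lungs. Most of that difference from old sham lay in 1 gene, Inmt, named after its values were seen, which went from 2520 to 848 TPM. Of the 10 genes 3 fell and 2 rose (Pdgfra and Col3a1) in old 1 day against old sham, with a median log2 change of -0.07 against 0.02 over all genes. Against young 1 day lungs 7 were lower and 2 higher in old 1 day lungs, with a median of -1.05 against 0.02, and none was at 0. Smooth muscle and pericyte markers summed to 274 to 591 TPM in old 1 day against 455 to 865 TPM in old sham, with 4 of 10 genes lower and a median log2 change of -0.61. Of 10 alveolar type 1 markers, 10 fell in old 1 h lungs, and 8 fell and 1 rose in old 1 day lungs against sham. Of all genes 12.6% and 16.3% were called lower there. The list's median log2 changes were -0.64 and -0.42, against 0.00 and 0.02 over all genes. In young lungs 1 rose and 1 fell at 1 h, and 1 rose and 2 fell at 1 day. The part of these lists in the lower Wnt2 and Wnt3a was not tested. Without replicate 2, the old 1 day library with the highest neutrophil markers, the change from old sham was -1.21 for Wnt2 (adjusted p = 0.00237) and -0.87 for Wnt3a (adjusted p = 0.0404).

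Wnt7a and Wnt7b are canonical ligands often made by epithelia. Wnt7a (Entrez 22421, chromosome 6, 91363981 to 91411353) rose at 1 day at both ages. In young lungs it went from 14.0, 11.6, 12.3 and 14.5 CPM in sham to 19.7, 17.2, 29.2 and 24.6 CPM. In old lungs it went from 10.1, 17.1, 11.8 and 14.8 CPM in sham to 26.2, 13.6, 39.8 and 26.1 CPM. The young groups lay apart and the old groups overlapped through old 1 day replicate 2. The log2 changes were 0.80 ± 0.25 in young (SE, adjusted p = 0.0094) and 0.97 ± 0.25 in old lungs (adjusted p = 0.00397), and they did not differ detectably (0.18 ± 0.35, adjusted p = 0.74). The young call was lost by limma on TPM (0.51, adjusted p = 0.0823), with the most abundant transcript alone (0.51, adjusted p = 0.27) and without young 1 day replicate 3 (0.63, adjusted p = 0.0506). At 1 h Wnt7a was at 6.47, 9.89, 8.78 and 10.7 CPM in old and 14.2, 13.1, 18.9 and 11.5 CPM in young lungs, with log2 changes of -0.59 ± 0.25 (adjusted p = 0.0898) and 0.14 ± 0.25 (adjusted p = 0.688) against sham. The old one was called by limma (-0.67, adjusted p = 0.0384), with only the groups compared (-0.61, adjusted p = 0.048) and without old 1 day replicate 2 (-0.59, adjusted p = 0.0436). From 1 h to 1 day it rose by 1.56 ± 0.25 in old lungs (adjusted p = 4.71e-05) and by 0.65 ± 0.25 in young lungs (adjusted p = 0.0341). This young call was lost without young 1 h replicate 1, 2 or 4, without young 1 day replicate 3 or 4 (0.51 to 0.65, adjusted p = 0.0658 to 0.133), without the low-count filter (0.67, adjusted p = 0.0532) and with the most abundant transcript alone (0.62, adjusted p = 0.2).

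Wnt7b (Entrez 22422, chromosome 15, 85535437 to 85581821) had the lowest mean CPM of the 9 genes over all libraries. It was called in none of the 11 comparisons by edgeR, limma or DESeq2. Its libraries ranged from 3.00 to 6.58 CPM in young sham, 2.38 to 8.34 CPM in young 1 h, 5.18 to 9.65 CPM in young 1 day, 2.74 to 4.06 CPM in old sham, 2.54 to 5.94 CPM in old 1 h and 4.06 to 10.9 CPM in old 1 day lungs. The old 1 day libraries all lay just above old sham (0.83 ± 0.37, adjusted p = 0.0805). Without young sham replicate 3 the young 1 day change reached 0.93 (adjusted p = 0.0476).

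Wnt5a, a ligand that signals mainly without beta-catenin and shapes the distal lung in development (Entrez 22418, chromosome 14, 28504543 to 28527448), was transiently lower. It stood at 19.2, 19.2, 20.1 and 19.3 CPM in young sham, at 6.00, 8.73, 4.82 and 7.51 CPM in young 1 h and at 14.1, 22.1, 17.0 and 16.5 CPM in young 1 day lungs. In old lungs it stood at 10.7, 11.6, 14.2 and 12.9 CPM after sham, at 4.13, 8.06, 7.37 and 6.50 CPM after 1 h and at 14.97, 7.93, 10.1 and 12.8 CPM after 1 day. The 1 h libraries lay below sham at both ages, while the 1 day libraries overlapped sham. The log2 change at 1 h was -1.53 ± 0.21 in young (SE, adjusted p = 5.69e-06) and -0.92 ± 0.21 in old lungs (adjusted p = 0.00245), and the difference of 0.61 ± 0.29 was not called (adjusted p = 0.165). At 1 day the changes from sham were -0.16 ± 0.20 (adjusted p = 0.528) and -0.11 ± 0.20 (adjusted p = 0.714). Between 1 h and 1 day it rose by 1.37 ± 0.21 in young (adjusted p = 2.17e-05) and 0.81 ± 0.21 in old lungs (adjusted p = 0.00314). With only the most abundant of its 6 transcripts counted, none of these 4 calls remained (adjusted p = 0.17 to 0.591), with changes of the same sign.

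Old sham lungs held less Wnt5a than young sham lungs in every library, a log2 difference of -0.66 ± 0.20 that was not called (adjusted p = 0.101). It was called by DESeq2 (-0.66, adjusted p = 0.0309), with only the sham groups fitted (-0.66, adjusted p = 0.00369) and without old 1 h replicate 1 (-0.66, adjusted p = 0.0495). At 1 day old lungs were lower than young lungs, at -0.60 ± 0.20 (adjusted p = 0.018), with overlap. That call was lost without young 1 day replicate 2 (-0.50, adjusted p = 0.0575), without old 1 day replicate 2 (-0.48, adjusted p = 0.0596) and with the GC trend removed (-0.44, adjusted p = 0.0788), and it turned to 0.09 with the most abundant transcript alone. The Wnt receptor gene Fzd7 followed Wnt5a closely over the 6 groups, with a root mean square difference of 0.17 against a spread of 0.62 for Wnt5a. It was next after Zfp108 among the 14349 candidates.

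Wnt11, a ligand that also signals mainly without beta-catenin (Entrez 22411, chromosome 7, 98835084 to 98854747), was higher at 1 h and lower at 1 day at both ages. It stood at 10.1, 10.7, 13.1 and 10.4 CPM in young sham, at 19.7, 27.4, 13.3 and 26.1 CPM in young 1 h and at 8.73, 9.48, 5.10 and 8.63 CPM in young 1 day lungs. In old lungs it stood at 15.7, 12.4, 16.1 and 13.5 CPM after sham, at 19.7, 21.6, 20.2 and 22.4 CPM after 1 h and at 8.77, 8.66, 11.9 and 9.26 CPM after 1 day. No group overlapped another of its age, although the lowest young 1 h library exceeded the highest young sham library by little. The log2 change at 1 h was 0.96 ± 0.19 in young (SE, adjusted p = 0.000347) and 0.54 ± 0.19 in old lungs (adjusted p = 0.0406). At 1 day it was -0.47 ± 0.19 in young (adjusted p = 0.043) and -0.58 ± 0.19 in old lungs (adjusted p = 0.0221). From 1 h to 1 day it fell by 1.44 ± 0.20 in young (adjusted p = 5.65e-06) and by 1.12 ± 0.19 in old lungs (adjusted p = 8.76e-05). Neither age difference was called (-0.42 ± 0.27 at 1 h, adjusted p = 0.315, and -0.10 ± 0.27 at 1 day, adjusted p = 0.807).

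The smaller Wnt11 calls rested on few libraries. The old 1 h call was lost without old sham replicate 1, 2 or 4, without any 1 of the 4 old 1 h libraries (0.47 to 0.58, adjusted p = 0.0572 to 0.112), by limma on TPM (0.26, adjusted p = 0.223), without the low-count filter (0.52, adjusted p = 0.053) and with the replicate block (0.53, adjusted p = 0.0611). The young 1 day call was lost without young sham replicate 2 or 3 or young 1 day replicate 3 (-0.50 to -0.32, adjusted p = 0.0553 to 0.14) with the replicate block (-0.48, adjusted p = 0.0545) and with only the groups compared (-0.48, adjusted p = 0.0503), and removal of the GC trend made it -0.88 (adjusted p = 0.000341). The old 1 day call was lost without old sham replicate 3 (-0.54, adjusted p = 0.0514) or old 1 day replicate 2 (-0.54, adjusted p = 0.0528). With the most abundant of its 7 transcripts alone, none of these 6 calls remained and 3 old values changed sign, to -0.54 at 1 h and 0.15 at 1 day against sham and 0.69 from 1 h to 1 day, while old 1 h lungs came out below young 1 h lungs (-1.26, adjusted p = 0.0419). In old 1 day against young 1 day lungs, Wnt11 was at 0.28 ± 0.19 (adjusted p = 0.247) and was called with the GC trend removed (0.65, adjusted p = 0.00537).

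Smooth muscle and pericyte markers had sums of 743 to 979 TPM in young sham, 812 to 2164 TPM in young 1 h, 455 to 865 TPM in old sham and 704 to 1035 TPM in old 1 h lungs, so that the 1 h groups overlapped sham. Of 10 genes 4 rose at 1 h in young and 1 in old lungs, beside 21.2% and 12.6% of all genes called higher. The list's median log2 change was 0.72 in young 1 h and 0.85 in old 1 h lungs, against 0.02 and 0.00 over all genes. Of 8 airway epithelial markers, 2 rose and 1 fell in young 1 h, and 2 rose and none fell in old 1 h lungs. Their medians were 0.34 and 0.37 at 1 h. At 1 day 6 fell at each age, with medians of -0.76 in young and -1.10 in old lungs. No marker of either list was at 0, and their part in the changes of Wnt11 was not tested. The genes most like Wnt11 over the 6 groups were Drc7, Egf, Drc1, Mok and BC051019, with root mean square differences of 0.08 to 0.12 against a spread of 0.54. Drc1 and Drc7 encode parts of the dynein regulatory complex of motile cilia. The ciliated cell genes of the airway list split in young 1 h against young sham lungs. Foxj1 averaged 72.2 against 53.9 TPM and Tppp3 856 against 637 TPM. Ccdc39 was lower, at 7.99 against 13.2 TPM, as was Dnah12, at 3.47 against 6.25 TPM. In old 1 h lungs all of them averaged above old sham.

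The promoter stretch of Wnt11 is shown because it alone among the members' windows held any of the 4 motifs searched. It is RefSeq sequence of build GRCm38.p6 on the plus strand, chr7:98834862-98835083, and ends 1 base before the outermost transcript start in the deposited table. Capitals mark ACGTG, the core of the hypoxia-response element, and ATCAAAG, a TCF/LEF site, whose first bases lie 61 and 51 bases before the RefSeq start.
Wnt11: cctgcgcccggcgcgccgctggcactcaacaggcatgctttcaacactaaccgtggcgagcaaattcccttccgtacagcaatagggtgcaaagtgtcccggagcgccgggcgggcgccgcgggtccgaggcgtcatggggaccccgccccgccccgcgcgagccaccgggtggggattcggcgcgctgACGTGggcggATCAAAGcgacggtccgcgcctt

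Windows of 250 bases before the RefSeq start were available for 7 of the 9 genes and were searched on both strands. The motifs were TCF/LEF (AACAAAG, besides ATCAAAG, besides TACAAAG, besides TTCAAAG), AP-1 (TGANTCA), the hypoxia-response core (ACGTG) and the heat-shock unit (GAANNTTC), and matches of different motifs did not overlap. They occurred in 14.8%, 6.75%, 16.6% and 6.69% of all 32851 windows of that length. No other window of the 7 genes held a match, including a downstream start of Wnt11 and the window of Axin2. A match describes letters only.

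Wnt4, which signals by either route depending on the cell (Entrez 22417, chromosome 4, 137277635 to 137299501), varied least of the 9 genes, between 14.1 and 23.9 CPM over all 24 libraries. In young lungs it rose from 18.7, 14.1, 16.1 and 14.6 CPM in sham to 20.2, 22.9, 18.9 and 20.5 CPM at 1 h. At 1 day it stood at 20.6, 23.9, 20.3 and 20.7 CPM. Both sets lay above young sham, with log2 changes of 0.38 ± 0.12 (SE, adjusted p = 0.0127) and 0.43 ± 0.12 (adjusted p = 0.00388). Old sham ranged from 17.7 to 20.7 CPM, old 1 h from 17.5 to 23.8 CPM and old 1 day from 15.1 to 20.7 CPM, all overlapping, with changes of 0.08 ± 0.12 (adjusted p = 0.677) and -0.08 ± 0.12 (adjusted p = 0.608). The change at 1 day differed between ages, at -0.51 ± 0.17 (old minus young, adjusted p = 0.0229). All 3 of these calls were lost with the GC trend removed, at 0.10 (adjusted p = 0.562), 0.06 (adjusted p = 0.711) and -0.22 (adjusted p = 0.344). They were also lost by limma on TPM, at 0.10, 0.19 and -0.33 (adjusted p = 0.52, 0.157 and 0.124). The young 1 h call was also lost without young sham replicate 2 (0.31, adjusted p = 0.0603) or 4 (0.32, adjusted p = 0.0544), and the age difference when only the most abundant transcript of every gene was counted (-0.50, adjusted p = 0.0644). Old 1 day against young 1 day lungs were at -0.26 ± 0.12 (adjusted p = 0.0708), which was called without young sham replicate 1, old 1 h replicate 2 or 3, or old 1 day replicate 3 or 4 (-0.36 to -0.27, adjusted p = 0.0174 to 0.0459).

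Axin2 (Entrez 12006, chromosome 11, 108917828 to 108950783) fell at 1 h at both ages and stood between sham and 1 h levels at 1 day. Young sham lungs held 32.5, 32.3, 26.9 and 27.6 CPM, and young 1 h lungs 20.8, 18.7, 22.5 and 16.8 CPM. Young 1 day lungs held 21.1, 29.5, 22.9 and 22.4 CPM. Old sham lungs held 25.2, 25.1, 24.5 and 22.4 CPM, and old 1 h lungs 15.4, 13.9, 15.03 and 14.1 CPM. Old 1 day lungs held 17.1, 23.3, 19.9 and 22.9 CPM. Every 1 h library lay below every sham library of its age, and the 1 day libraries overlapped sham at both ages. The log2 change at 1 h was -0.59 ± 0.11 in young (SE, adjusted p = 0.000221) and -0.73 ± 0.11 in old lungs (adjusted p = 7.61e-05), with a difference of -0.14 ± 0.16 (adjusted p = 0.621). At 1 day it was -0.32 ± 0.11 in young (adjusted p = 0.0222) and -0.22 ± 0.11 in old lungs (adjusted p = 0.131). The young 1 day call was lost without young sham replicate 1 or 2 or young 1 day replicate 1 or 4 (-0.30 to -0.28, adjusted p = 0.0506 to 0.0621), and it grew to -0.72 with the GC trend removed (adjusted p = 5.45e-05).

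From 1 h to 1 day Axin2 rose in old lungs by 0.51 ± 0.11 (adjusted p = 0.00102), with the groups apart. In young lungs the rise of 0.28 ± 0.11 (adjusted p = 0.0477) overlapped. Removing the GC trend ended this call (0.17, adjusted p = 0.261), as did DESeq2 (0.26, adjusted p = 0.0584), the fit of only the groups compared (0.26, adjusted p = 0.125), the replicate block (0.28, adjusted p = 0.0538) and the absence of the low-count filter (0.29, adjusted p = 0.0647). It was also lost on leaving out young sham replicate 4, young 1 h replicate 1, 2 or 4, young 1 day replicate 2 or 3, old sham replicate 1 or 2, or old 1 h replicate 1, 3 or 4 (0.18 to 0.31, adjusted p = 0.055 to 0.205). Old 1 h lungs were below young 1 h lungs, at -0.44 ± 0.11 (adjusted p = 0.00408), which became -0.13 when the GC trend was removed (adjusted p = 0.453). With the most abundant of its 6 transcripts alone, the young 1 day call remained (-2.88, adjusted p = 0.0286), the other Axin2 calls were lost (adjusted p = 0.21 to 0.841), and the young rise became -1.70. Of 10 alveolar type 2 markers 3 were lower in young and 4 in old lungs at 1 h, beside 20.1% and 12.6% of all genes. The list's median log2 changes were -0.11 and -0.48. Their sums were 45370 to 56490 TPM in young sham, 36540 to 51000 TPM in young 1 h, 35180 to 49650 TPM in old sham and 18760 to 30890 TPM in old 1 h lungs. Most of each sum was 1 gene, Sftpc, at 31405, 25429, 25731 and 14094 TPM on average in the same order. No marker of the list was at 0, and their part in the fall of Axin2 was not tested.

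The Axin2 window is shown as the promoter of the pathway's own target, RefSeq sequence of build GRCm38.p6 on the plus strand, chr11:108920099-108920348. It lies downstream of the outermost transcript start in the deposited table. It held no match to the TCF/LEF letters or the other 3 motifs, so none is in capitals. Only these 250 bases were searched, so sites elsewhere in the Axin2 locus would not have been seen.
Axin2: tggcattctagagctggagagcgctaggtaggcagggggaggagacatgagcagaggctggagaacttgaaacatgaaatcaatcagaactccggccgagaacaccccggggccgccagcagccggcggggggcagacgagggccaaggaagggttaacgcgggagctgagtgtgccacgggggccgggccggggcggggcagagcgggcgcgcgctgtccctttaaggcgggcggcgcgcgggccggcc

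**Figure D2:**
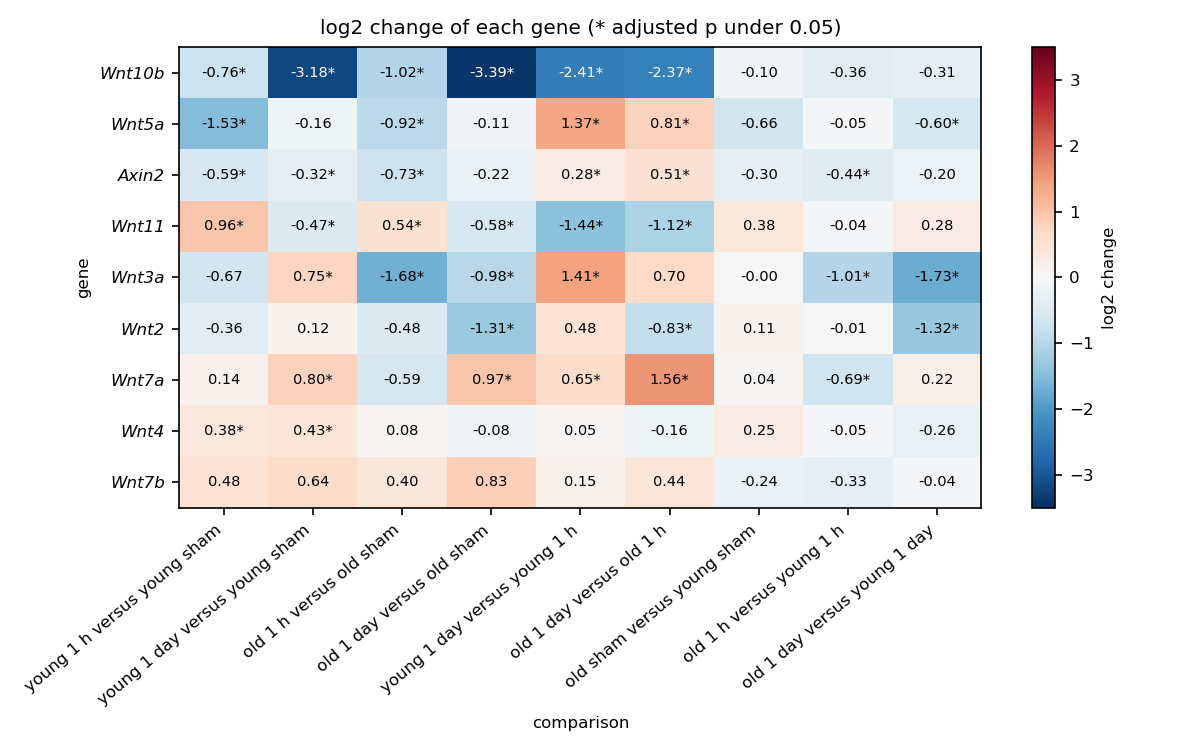
Log2 change of each gene in 9 comparisons of 2 groups, as colour (blue lower, red higher) and number; an asterisk marks an adjusted p under 0.05. Wnt10b is blue in all 6 comparisons between stages, Wnt5a is blue at 1 h and red from 1 h to 1 day, and no gene has an asterisk between the sham groups.

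Counts of the 9 genes are read beside the share of all tested genes that was called. In young 1 h against young sham 2 were higher and 3 lower, where 21.2% of all genes were called higher and 20.1% lower (41.3% in all). The libraries of these groups lay apart for 5 of the 9 genes and for 41.5% of all genes. In young 1 day against young sham 3 were higher and 3 lower, beside 27.9% and 26.0% of all genes (53.9% in all), and 5 lay apart, beside 50.8%. In old 1 h against old sham 1 was higher and 4 were lower, beside 12.6% of all genes in each direction (25.2% in all), and 5 lay apart, beside 32.5%. In old 1 day against old sham 1 was higher and 4 were lower, beside 20.0% and 16.3% of all genes (36.3% in all), and 4 lay apart, beside 32.2%. The median log2 change of the 8 ligands was -0.11 in young 1 h, 0.28 in young 1 day, -0.54 in old 1 h and -0.34 in old 1 day lungs, against medians of 0.02, -0.03, 0.00 and 0.02 over all tested genes. The comparisons at 1 h and at 1 day share their sham libraries. Without old 1 h replicate 1, the old 1 h library with the most neutrophil markers, the log2 change from old sham was -1.09 for Wnt10b (adjusted p = 0.00328), -1.61 for Wnt3a (adjusted p = 0.00198), -0.76 for Wnt5a (adjusted p = 0.0101) and -0.77 for Axin2 (adjusted p = 0.000238). Without old 1 day replicate 2 it was -3.24 for Wnt10b (adjusted p = 2.73e-08) and 1.17 for Wnt7a (adjusted p = 0.000431) at 1 day.

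Between 1 h and 1 day 4 of the 9 genes rose and 2 fell in young lungs, beside 24.5% and 22.1% of all genes (46.6% in all), with 4 apart, beside 37.8%. In old lungs 3 rose and 3 fell, beside 24.1% and 20.9% of all genes (45.0% in all), with 4 apart, beside 37.0%. Wnt10b and Wnt11 fell and Wnt5a, Wnt7a and Axin2 rose at both ages, while Wnt3a rose by 1.41 ± 0.29 in young lungs (SE, adjusted p = 0.000486) and was at 0.70 ± 0.30 in old lungs (adjusted p = 0.0595). The old value was called without old 1 h replicate 4 (0.95, adjusted p = 0.0194) and without old 1 day replicate 2 (0.81, adjusted p = 0.0433) or 3 (0.92, adjusted p = 0.0106). Wnt2 in young lungs was at 0.48 ± 0.25 (adjusted p = 0.124) and was called by limma (0.55, adjusted p = 0.0471).

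Age alone was compared in the sham groups, where edgeR called none of the 9 genes and 2.31% of all genes, 1.09% higher and 1.22% lower in old lungs. At an unadjusted p under 0.05 there were 3 (Axin2, Wnt4 and Wnt5a), DESeq2 called 1 (Wnt5a) and limma on TPM none. Axin2 and Wnt5a lay apart between the sham groups, as 13.4% of all genes did. Axin2 was at -0.30 ± 0.11 (SE, adjusted p = 0.207) and Wnt4 was at 0.25 ± 0.12 (adjusted p = 0.326). In old 1 h against young 1 h lungs 3 genes were lower (Wnt3a, Wnt7a and Axin2) and none higher, beside 21.5% and 20.5% of all genes (42.0% in all). The libraries lay apart for 3 of the 9 genes, the same 3, beside 39.4% of all genes. None of the 3 was called with the GC trend removed. Wnt7a was at -0.69 ± 0.25 (SE, adjusted p = 0.0314) and at -0.58 with that trend removed (adjusted p = 0.0883). Its call was also lost without young 1 h replicate 1 or 3 or old 1 h replicate 1 or 3 (-0.69 to -0.52, adjusted p = 0.0511 to 0.129), by limma (-0.56, adjusted p = 0.0739), without the low-count filter (-0.67, adjusted p = 0.0608) and from the most abundant transcript (-0.20, adjusted p = 0.744). In old 1 day against young 1 day lungs 3 genes were lower, namely Wnt2 (-1.32 ± 0.26, adjusted p = 0.00022), Wnt3a and Wnt5a, and none was higher, beside 25.1% of all genes in each direction (50.2% in all). Of the 9 genes 2 lay apart, Wnt2 and Wnt3a, beside 37.7% of all genes. The change from sham differed between ages for 3 genes at 1 day (Wnt2, Wnt3a and Wnt4). All 3 differences were negative (old minus young), beside 15.2% of all genes in each direction (30.3% in all). For Wnt4 the young change was called higher (0.43) and the old change was not called (-0.08, adjusted p = 0.608). Its difference was not called with the GC trend removed (-0.22, adjusted p = 0.344), by limma (-0.33, adjusted p = 0.124) or from the most abundant transcript (-0.50, adjusted p = 0.0644). At 1 h edgeR called none, beside 8.07% of all genes higher and 9.46% lower (17.5% in all), with 1 gene (Wnt3a) at an unadjusted p under 0.05 and none by DESeq2 or limma.

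In order of mean CPM, most neighbouring groups overlapped, and a gap is given here only between groups next to each other in that order. For Wnt10b the order was young sham, old sham, young 1 h, old 1 h, young 1 day and old 1 day, with gaps between sham and 1 h and between 1 h and 1 day. For Wnt3a young 1 day lay above all other groups, which overlapped from neighbour to neighbour. For Wnt11 the order was young 1 h, old 1 h, old sham, young sham, old 1 day and young 1 day, with a gap between old 1 h and old sham, although young 1 h replicate 3 (13.3 CPM) lay within old sham. For Axin2 the order was young sham, old sham, young 1 day, old 1 day, young 1 h and old 1 h, with gaps between the sham groups and between the 1 h groups, while young 1 day overlapped young sham. For Wnt7a old 1 h came last, with a gap to young sham, the group before it, but it overlapped old sham. For Wnt2, Wnt4, Wnt5a and Wnt7b every neighbouring pair overlapped. By the same root mean square measure, the gene most like Axin2 was Magef1 (0.07, against a spread of 0.32), for Wnt7a it was Ttc39aos1 (0.06 against 0.50), for Wnt2 Tmem150c (0.12 against 0.49) and for Wnt4 Sdccag8 (0.03 against 0.14).

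The make-up of the summed level of the 8 chosen ligands shifted with time. Other ligands that passed the low-count filter are left out of it, among them Wnt9a at group means of 4.50 to 10.3 TPM. The summed level of the 8 ligands was 86.5 ± 5.47 TPM (SD, n = 4) in young sham, 66.2 ± 5.81 TPM in young 1 h and 73.0 ± 4.19 TPM in young 1 day lungs. It was 84.3 ± 2.199 TPM in old sham, 56.6 ± 5.06 TPM in old 1 h and 56.0 ± 12.7 TPM in old 1 day lungs. In the last group replicate 2 was lowest at 37.9 TPM. All reperfused libraries lay below all sham libraries of their age. Wnt10b made up 27.9% ± 4.64 of the sum in young sham and 25.7% ± 2.95 in old sham lungs, and 3.18% ± 1.18 and 3.56% ± 0.721 at 1 day. Wnt11 held the largest share at 1 h, 22.8% ± 5.74 in young and 26.6% ± 1.26 in old lungs. At 1 day the largest share was that of Wnt3a in young lungs, 24.3% ± 1.78, and that of Wnt7a in old lungs, 31.4% ± 7.37. These sums are given as a description without a test.

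**Figure D3:**
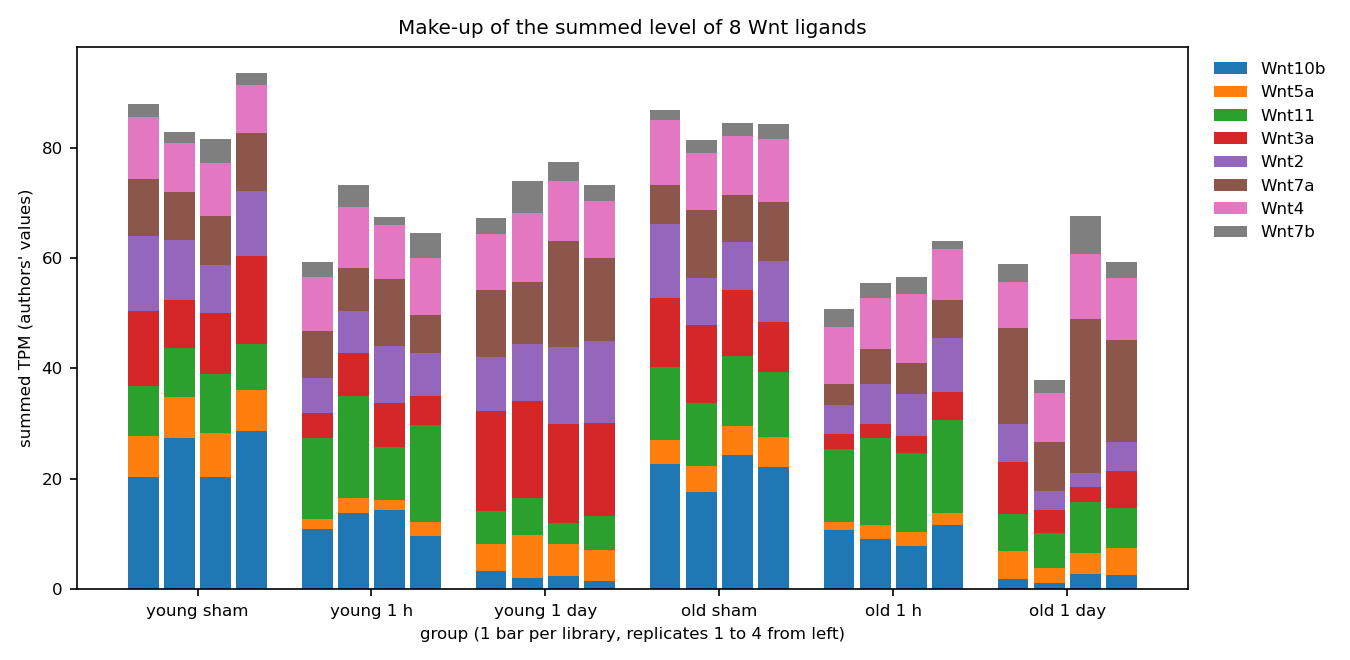
Summed TPM of the 8 Wnt ligands in each library (1 bar per library, replicates 1 to 4 from the left within a group), divided by ligand. The blue Wnt10b segment falls from 21.7 to 24.2 TPM on average in the sham groups to 2.05 to 2.29 TPM at 1 day, while Wnt3a is widest in young 1 day and Wnt7a in old 1 day lungs.

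The other genes of the pathway were counted from lists of its parts, some of which share genes. Their counts against sham are to be read beside all tested genes, of which 21.2% were called higher and 20.1% lower in young 1 h, 27.9% and 26.0% in young 1 day, 12.6% and 12.6% in old 1 h, and 20.0% and 16.3% in old 1 day lungs. Of 11 other Wnt ligand genes, 4 passed the low-count filter and 7 stayed below it. Wnt9a, a canonical ligand, rose in young 1 day (0.41 ± 0.16, SE, adjusted p = 0.0356) and fell in old 1 h lungs (-0.84 ± 0.16, adjusted p = 0.000683). Wnt5b fell in old lungs at 1 h (-0.74 ± 0.21, adjusted p = 0.0138) and 1 day (-0.71 ± 0.21, adjusted p = 0.0121). Wls, which carries Wnt proteins to the cell surface, fell in young 1 day (-0.32 ± 0.10, adjusted p = 0.00664), old 1 h (-0.30 ± 0.10, adjusted p = 0.0231) and old 1 day lungs (-0.40 ± 0.10, adjusted p = 0.00237). Porcn, the enzyme that lipidates Wnt proteins, rose in young 1 h lungs (0.42 ± 0.17, adjusted p = 0.0464).

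Of 15 receptor and co-receptor genes, 2 rose and 6 fell in young 1 h, none rose and 8 fell in old 1 h, 4 rose and 5 fell in young 1 day, and 2 rose and 5 fell in old 1 day lungs. The median of the list was -0.28 in young 1 h and -0.27 in old 1 h lungs, against 0.02 and 0.00 over all genes. Fzd7 fell at 1 h from 39.6 ± 5.21 to 17.4 ± 1.18 CPM (SD, n = 4) in young lungs (-1.19 ± 0.11, SE, adjusted p = 4.7e-08) and from 33.1 ± 3.22 to 15.8 ± 1.18 CPM in old lungs (-1.07 ± 0.11, adjusted p = 7.31e-07). Fzd4, a receptor of the endothelium, was at -1.30 ± 0.16 in young 1 day lungs (adjusted p = 8.24e-07), and Fzd2 was at -1.29 ± 0.23 in old 1 h lungs (adjusted p = 0.000324).

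Among the R-spondin module, which amplifies Wnt signals at the receptor, no gene of 9 rose against sham and 1, 2, 3 and 4 fell in young 1 h, young 1 day, old 1 h and old 1 day lungs. The ligand gene Rspo1 fell in all 4, with log2 changes of -0.69 ± 0.27 (SE, adjusted p = 0.0488), -1.93 ± 0.28 (adjusted p = 6.84e-06), -1.05 ± 0.27 (adjusted p = 0.007) and -1.81 ± 0.28 (adjusted p = 3.71e-05) in the same order. The young 1 h call of Rspo1, the only one of the module there, was lost without young sham replicate 1, 3 or 4, young 1 h replicate 1, 3 or 4, young 1 day replicate 1, 2 or 4, old 1 h replicate 2 or 4, or old 1 day replicate 4. Of 12 antagonist genes that could be tested from 14 listed, Sfrp1, which binds Wnt proteins, rose at 1 day from 18.6 ± 2.30 to 61.2 ± 14.0 CPM (SD, n = 4) in young (1.72 ± 0.22, SE, adjusted p = 1.2e-06) and from 22.2 ± 4.11 to 53.9 ± 17.9 CPM in old lungs (1.28 ± 0.22, adjusted p = 0.000114). Wif1, another secreted inhibitor, fell at 1 day by 1.10 ± 0.30 on the log2 scale in young (adjusted p = 0.00413) and by 2.60 ± 0.32 in old lungs (adjusted p = 2.5e-06).

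Of 12 other Wnt/beta-catenin target genes, 1 rose and none fell in young 1 h, 1 rose and 4 fell in old 1 h, 3 rose and 3 fell in young 1 day, and 2 rose and 6 fell in old 1 day lungs. At 1 h, when Axin2 fell at both ages, none of the 12 was called lower in young lungs and 4 were in old lungs. The list's median log2 changes were -0.01 and -0.39, against 0.02 and 0.00 over all genes. Myc, a growth regulator that many other signals also induce, rose from 16.6 ± 4.58 to 85.3 ± 15.5 CPM (SD, n = 4) in young 1 h (2.36 ± 0.30, SE, adjusted p = 2.55e-06) and to 82.4 ± 14.9 CPM from 18.5 ± 5.15 CPM in old 1 h lungs (2.15 ± 0.29, adjusted p = 2.39e-05). Rnf43, which removes Frizzled receptors from the surface, was at -0.61 ± 0.16 in old 1 h lungs (adjusted p = 0.00639). Tcf7 and Lef1, transcription factors of the pathway that T cells also express, fell at 1 day. Tcf7 fell by 1.25 ± 0.12 on the log2 scale in young (adjusted p = 3.69e-08) and 0.54 ± 0.12 in old lungs (adjusted p = 0.00156). Lef1 fell by 1.65 ± 0.21 (adjusted p = 1.27e-06) and 1.057 ± 0.21 (adjusted p = 0.000605). T cell markers fell in the same comparisons, as given above for Wnt10b, and their part here was not tested either. Of 13 relay and destruction complex genes, 5 rose and 4 fell in young 1 h, none rose and 1 fell in old 1 h, 3 rose and 5 fell in young 1 day, and 2 rose and 2 fell in old 1 day lungs. Ctnnb1, the gene of beta-catenin, rose in young 1 h lungs from 802 ± 66.0 to 1092 ± 56.2 CPM (SD, n = 4), a log2 change of 0.45 ± 0.07 (SE, adjusted p = 3.36e-05), and this change differed between ages at 1 h (-0.49 ± 0.10, adjusted p = 0.00253). In TPM the rise was smaller, from a mean of 509 in young sham to 572 in young 1 h lungs. Old sham lungs averaged 448 TPM and old 1 h lungs 388 TPM. No value of Ctnnb1 with the GC trend removed is given.

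**Figure D4:**
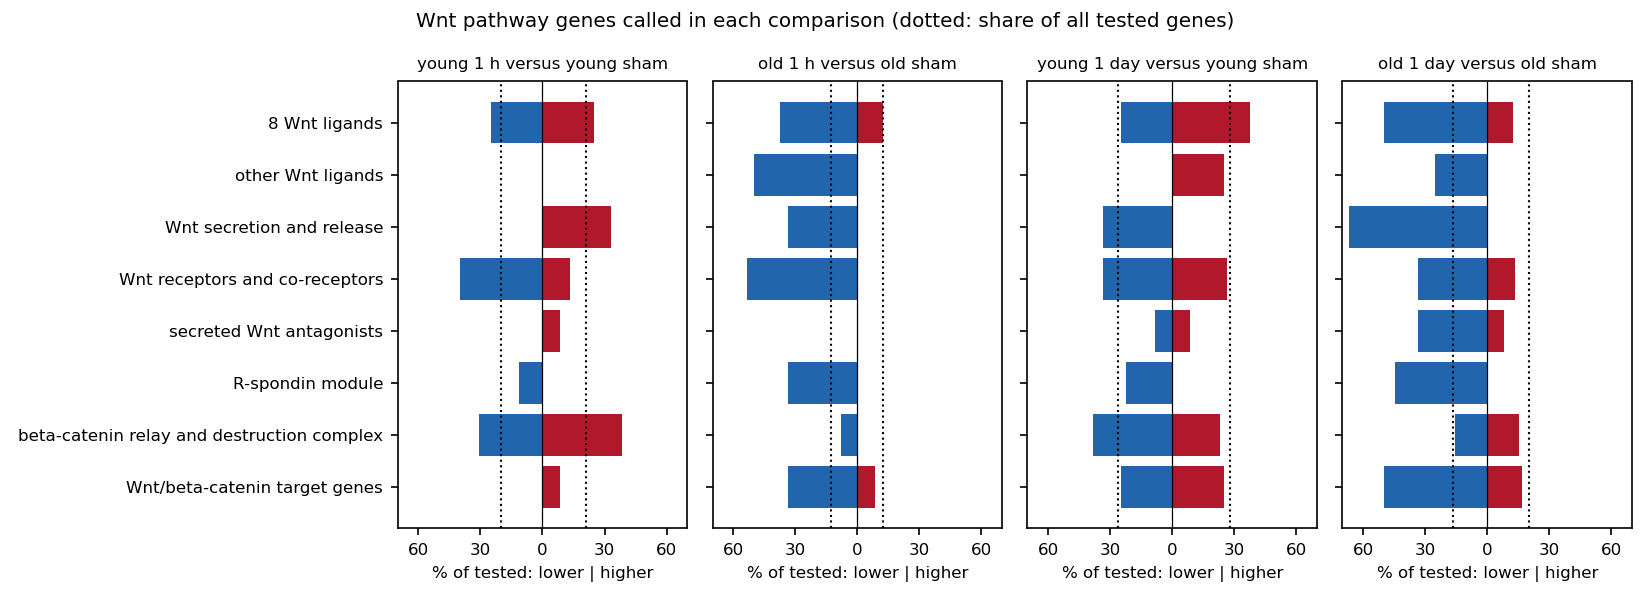
Share of tested genes of each Wnt pathway list called lower (blue, to the left) or higher (red, to the right) in the 4 comparisons with sham, in percent; dotted lines mark the share of all 19690 tested genes called in that direction. In old 1 h lungs none of the 15 receptor genes is called higher and 8 are called lower, where 12.6% of all genes are called in each direction.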

How the data were processed

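The authors deposited 1 table of 129299 transcripts with an estimated count, an FPKM and a TPM value for each of 24 libraries, which are sequenced mRNA from whole lung. Per the submitters' processing notes, HISAT2 and StringTie were used with mm10 (GRCm38), in versions not given in the sources used here. Per the labels' protocols, a stranded mRNA kit was used on total RNA. The deposited estimated counts are whole numbers. In 98.39% to 99.03% of values under 50 they equal the deposited FPKM times length times a constant, rounded up.

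Counts and TPM were summed to 45777 genes by symbol. Groups came from the sample titles. Genes passing filterByExpr (minimum count 10) were tested in edgeR 4.0.16 (R 4.3.3) with TMM scaling, glmQLFit (robust) and glmQLFTest, over 6 group means and 11 contrasts, with Benjamini-Hochberg adjustment over 19690 genes. The script was tested on simulated data. Alternatives were DESeq2 1.42.0, limma 3.58.1 on log2(TPM + 1), other filters, a replicate block, only the groups compared, the most abundant transcript of each gene, GC trend removal, and leaving out each library. Library totals were 27850677 to 44504824 estimated reads, and the common biological coefficient of variation was 23.2%. FPKM was used for the check of the counts only.

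The members and lists were chosen with earlier results of these data known. All 9 members are counted in every comparison, and values are given for changes that were called or whose call depended on a setting. From each pathway list, at most the 3 called genes with the smallest p per comparison are named. The most similar genes had the smallest root mean square difference in centred log2 CPM over the 6 group means, among genes of at least 1 CPM on average and leaving out predicted genes. The labels do not say that the libraries of a group came from separate animals, so p-values measure only the spread between these samples. Promoter sequences are RefSeq (GRCm38.p6), cut before the first base of any deposited transcript that starts inside the window. Exons of deposited transcripts that start further upstream were not looked for.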

Additional observations from a re-analysis of the deposited data

Results flagged for a closer look

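The change from sham at 1 day differed between ages, by the test of the difference itself (old minus young), for 3 of the 9 genes. The log2 difference was -1.44 for Wnt2 (edgeR's quasi-likelihood test, adjusted p = 0.00452), -1.72 for Wnt3a (adjusted p = 0.00323) and -0.51 for Wnt4 (adjusted p = 0.0229). Those of Wnt2 and Wnt3a were called under every alternative. The Wnt4 difference was lost with the GC trend removed (-0.22), by limma on TPM (-0.33) and from the most abundant transcript (-0.50).

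A single library lay far from the other 3 of its group in 4 of the 54 combinations of gene and group examined, beyond Dixon's critical value. Wnt4 was 23.9 CPM in young 1 day replicate 2 and Wnt7b was 9.65 CPM in the same library, both the highest of their group. Wnt5a was 20.1 CPM in young sham replicate 3, the highest of a group whose other libraries lay at 19.2 to 19.3 CPM. Wnt10b was 21.6 CPM in old sham replicate 2, the lowest of its group. Chance alone gives such a value in about 1 in 20 groups.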

How the results depend on the processing

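Of 42 called changes of the 9 genes, 42 remained called when genes needed 1 CPM or more in 4 libraries, 41 with DESeq2, 39 with the replicate block, 38 with only the groups compared, 37 without the low-count filter, 35 with limma on TPM, 33 with the GC trend removed and 19 with the most abundant transcript alone. With that transcript 5 changes reversed. For Wnt11 they were old 1 h (-0.54) and old 1 day lungs (0.15) against sham, and 1 h to 1 day in old lungs (0.69). Axin2 reversed from 1 h to 1 day in young lungs (-1.70), and Wnt5a in old against young 1 day lungs (0.092). The share of a gene's counts held by that transcript differed between these groups. For Wnt11 it was 40.1% in old sham, 19.3% in old 1 h and 67.0% in old 1 day lungs. For Axin2 it was 51.5% in young 1 h and 11.8% in young 1 day lungs. For Wnt5a it was 39.2% in young 1 day and 60.6% in old 1 day lungs. Why these shares differed was not tested. The most abundant transcript left 1 of 5 members called in young 1 h, 3 of 6 in young 1 day and 1 of 5 in old 1 h lungs against sham. From 1 h to 1 day it left 2 of 6 in young and 3 of 6 in old lungs. Limma left 3 in young 1 day lungs, and GC trend removal left 0 of 3 between ages at 1 h, where the count over all genes went from 8265 to 6069. The sham groups gave 1 in place of 0 with DESeq2, with only the groups compared and without old 1 h replicate 1, and the age difference at 1 h gave 1 in place of 0 with only the groups compared and without old 1 h replicate 4. Leaving out 1 library gave 4 to 6 members in young 1 h, 3 to 6 in young 1 day (3 without young sham replicate 2 or young 1 day replicate 3), 4 to 6 after 1 h and 4 to 5 after 1 day in old lungs against sham, 4 to 6 and 6 to 7 from 1 h to 1 day in young and old lungs, 0 to 1 between sham groups, 2 to 3 and 2 to 4 between ages at 1 h and 1 day, and 0 to 1 and 3 to 3 for the age difference at 1 h and 1 day. It reversed 0 of the 42 changes. Replicate numbers did not pair the libraries: same-numbered libraries of different groups correlated at -0.334 to 0.304 in their deviations, 8 of 60 pairs above 0.1, and 25 of 120 library and group combinations correlated best with their own number. The replicate block ended 3 calls, Wnt11 in young 1 day and old 1 h lungs against sham and Axin2 from 1 h to 1 day in young lungs. With it, members called were 5, 5, 4 and 5 in young 1 h, young 1 day, old 1 h and old 1 day lungs against sham, 5 and 6 from 1 h to 1 day, 0 between sham groups, 3 and 3 between ages, and 0 and 3 for the age differences. Over all genes, the sham groups gave 454 called genes, 871 with DESeq2, 1316 with only the groups compared and 113 with the most abundant transcript. Counts of called genes in the pathway lists moved by over 1.5 times in 289 of 2464 list, comparison and setting combinations, 105 to a higher and 184 to a lower count. Wnt7b had the lowest mean CPM of the 9 genes, and the part of depth in its lack of calls was not tested.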
